A study of Mus musculus with 4 samples.

Results

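The 2 genes described here are Kitl, which encodes Kit ligand (stem cell factor), and Kit, which encodes its receptor, a class III receptor tyrosine kinase. They were taken by symbol from the 32285 genes counted in single-cell RNA sequencing of mouse ovary, and their levels played no part in how the cells were grouped. Kit ligand is made as a membrane protein that can also be shed, and it brings Kit receptors together so that they phosphorylate each other and signal through PI3K, RAS-ERK, SRC-family and STAT proteins. In the ovary the ligand is known from granulosa cells and the receptor from oocytes and theca cells, and the pair takes part in follicle activation, oocyte growth and theca cell recruitment.

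Each of the 4 groups is 1 library, made from 1 ovary of each of 5 mice that were pooled before dissociation. The mice were prepubertal (postnatal day 25), with collection 4 hours after the final dose. The control group received PBS or saline, the doxorubicin group 2 weekly doses of doxorubicin at 3 mg/kg (an anthracycline that damages DNA), and the AMH group recombinant human anti-Müllerian hormone at 0.75 mg/kg. The doxorubicin+AMH group received both agents at those doses. Strain and route are not given in the sources used here. The series title asks how AMH acts on the ovary given doxorubicin. With 1 library per group there is no spread between replicates and no test. Each ratio below compares libraries, not treatments, and each interval is a 95% interval of counting error only.

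The 4 libraries held 7141 to 9478 deposited cells, of which 28230 of 33639 were kept, with medians of 10607 (AMH) to 15041 (doxorubicin) UMIs per kept cell. UMIs are molecular tags, counted once per captured transcript. Between 11 and 24 cell barcodes were shared by any pair of libraries. Joint clustering without Kitl and Kit gave 32 clusters. Of these, 30 were named, always with "-like", from marker lists, in 11 classes, and 2 with mixed or missing markers were left unnamed. One unnamed cluster, with both granulosa and smooth muscle markers among its leading genes, held 180 doxorubicin cells and 2 AMH cells. Levels are counts per 1e6 UMIs (CPM) summed over the cells of a class.

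Both genes have alternative forms that are central to how the pair works, and the stretches that distinguish them are shown for that reason. Kitl lies on the plus strand at chr10:100015630-100100416 (GRCm38, GENCODE M21, 6 transcripts). Its exon 6 of 10, at chr10:100080857-100080940 in the longer of the compared transcripts, is absent from the shorter, and the coding sequence of this exon is known to carry the main site at which the ligand is cut from the membrane.
Kitl exon 6: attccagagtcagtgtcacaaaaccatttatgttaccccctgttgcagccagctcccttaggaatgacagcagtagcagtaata
Kit lies on the plus strand at chr5:75574916-75656722 (8 transcripts). Its coding transcripts differ by 12 bases at the end of exon 9 of 21, at chr5:75639147-75639158, which encode a short insert in the extracellular part next to the membrane. These bases are in capitals, after the 24 bases before them.
Kit exon 9 end: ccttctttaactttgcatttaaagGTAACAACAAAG
The libraries count 3′ transcript ends per gene, so neither pair of forms was separated, and each value below is for all forms of the gene. The annotation has 0 genes overlapping either gene.

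Promoter stretches of 30 bases are shown because both genes differed between libraries with and without AMH, a hormone whose receptors act through SMAD proteins. Windows from 250 bases before to 50 bases after the RefSeq start site (GRCm38.p6) were searched on both strands for 7 motifs. The SMAD element CAGAC, the GC box GGGCGG and the TATA box TATAAA are in capitals in the stretches. The others were the BMP element GGCGCC, the CRE core TGACG, the GATA site AGATAA and the E-box CANNTG. The Kitl stretches, at chr10:100015623-100015652 and chr10:100015776-100015805, begin 198 and 45 bases before the start site at 100015821, and the Kit stretch, at chr5:75574883-75574912, begins 104 bases before 75574987.
Kitl SMAD element: agtaccCAGACaggggacgcaccaggctcg
Kitl GC boxes and TATA box: GGGCGGGCGGgagggagctgTATAAAaagc
Kit GC box: cgacccGGGCGGgagaagggaggggcgtgg
The Kitl window had 2 SMAD elements, 3 GC boxes (2 of them overlapping in the stretch shown) and 1 TATA box, and the Kit window had 1 GC box and neither of the other two. The BMP element, the CRE core and the GATA site had 0 matches in both windows, and the E-box had 1 in each. Of 32851 promoter windows of this length, 49.6% held the SMAD element, 35.7% the GC box, 13.6% the TATA box, 11.9% the BMP element, 20.8% the CRE core, 11.2% the GATA site and 72.3% the E-box. The windows were 68.7% (Kitl) and 69.0% (Kit) G or C, against a median of 52.7%. These matches are letters in a window and are not evidence of binding.

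The theca-like class held 79.9% of all Kit UMIs and 10.5% of the cells. Its share of Kit UMIs was 86.4% for control, 88.9% for doxorubicin, 68.9% for doxorubicin+AMH and 49.2% for AMH. Granulosa-like cells held 51.0% of all Kitl UMIs and 33.33% of the cells, and theca-like cells held a further 28.6% of Kitl UMIs. The largest source of the ligand and that of the receptor were different classes. In AMH the oviduct epithelial-like class gave 24.9% of Kit UMIs, against 4.91% in control, and it made up 2.98% of AMH cells and 1.67% of control cells. Oviduct epithelium can come with the ovary at dissection, and the whole-library Kit value in AMH includes it.

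**Figure D1:**
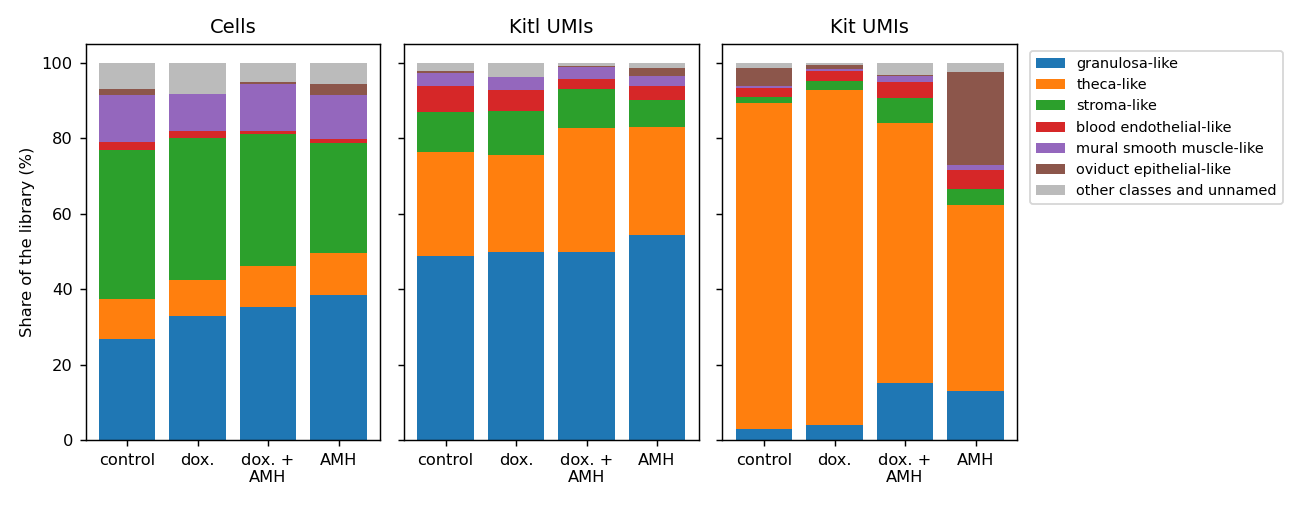
Share of each library (%) by cell class, for cells (left), Kitl UMIs (middle) and Kit UMIs (right), in the 4 libraries ("dox." is doxorubicin). Theca-like cells were 9.59% to 11.1% of cells in every library and gave 49.2% to 88.9% of Kit UMIs.

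Across classes, Kitl was highest in blood endothelial-like cells, at 643 CPM over the 4 libraries together, followed by theca-like cells at 450.1 CPM and granulosa-like cells at 238 CPM. The blood endothelial-like and theca-like ranges over libraries overlapped (603 to 666 CPM and 348 to 611 CPM), while the granulosa-like range of 210 to 269 CPM lay below both. Surface epithelial-like cells followed with 116 to 166 CPM and stroma-like cells with 95.9 to 109 CPM, and neither overlapped the class above it. Mural smooth muscle-like (78.2 to 111 CPM), oviduct epithelial-like (45.0 to 111 CPM in the 3 libraries with at least 20 such cells) and macrophage-like cells (36.7 to 104 CPM) overlapped the stroma-like range. Lymphatic endothelial-like cells, at 23.1 to 37.9 CPM, lay far under blood endothelial-like cells, with no overlap. T or NK lymphocyte-like cells had 6.11 to 66.2 CPM, on 36 UMIs in all.

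Erythroid-like cells, which should lack both transcripts, were used as the measure of free RNA. They held 3, 5, 46 and 7 Kitl UMIs in control, doxorubicin, doxorubicin+AMH and AMH (8.71, 12.4, 99.9 and 38.0 CPM). In doxorubicin+AMH 19 of the 46 lay in 1 cell, and without that cell the level was 64.9 CPM. The Kitl UMIs lay in 2, 3, 7 and 6 of the 60, 59, 75 and 41 erythroid-like cells of these libraries. They were thus not spread evenly, and whether they measure free RNA alone was not tested. The class held 2 Kit UMIs in all, at 1.43 CPM. Within a library, granulosa-like, theca-like, blood endothelial-like and surface epithelial-like Kitl lay above the erythroid-like level in all 4. Stroma-like Kitl was above it in control (98.0 against 8.71 CPM), doxorubicin (95.9 against 12.4 CPM) and AMH (109 against 38.0 CPM), and at it in doxorubicin+AMH (98.6 against 99.9 CPM). Mural smooth muscle-like (78.2 CPM), macrophage-like (71.7 CPM), oviduct epithelial-like (57.5 CPM), T or NK lymphocyte-like (29.6 CPM) and lymphatic endothelial-like Kitl (26.0 CPM) lay below it in doxorubicin+AMH.

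Kit was highest in theca-like cells, at 163 CPM over the 4 libraries together, then in oviduct epithelial-like cells at 90.5 CPM and blood endothelial-like cells at 55.1 CPM. The blood endothelial-like range was narrow, 49.6 to 58.7 CPM over the 4 libraries, while the theca-like range was 63.2 to 253 CPM. The theca-like and oviduct epithelial-like ranges overlapped, and in the AMH library oviduct epithelial-like Kit was 88.5 CPM against 67.8 CPM in theca-like cells. Without 4 oviduct epithelial-like cells that held oocyte transcripts the value there was 67.0 CPM, and the theca-like class held no such cell. The unnamed cluster led by Cd74 and H2-Eb1, genes of antigen presentation, had 50.3 CPM on 66 UMIs in 126 cells. No other class exceeded 11 CPM over the libraries together. Granulosa-like cells had 3.01 to 4.16 CPM, stroma-like cells 3.09 to 4.2 CPM and mural smooth muscle-like cells 1.76 to 2.51 CPM, close to the erythroid-like level.

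**Figure D2:**
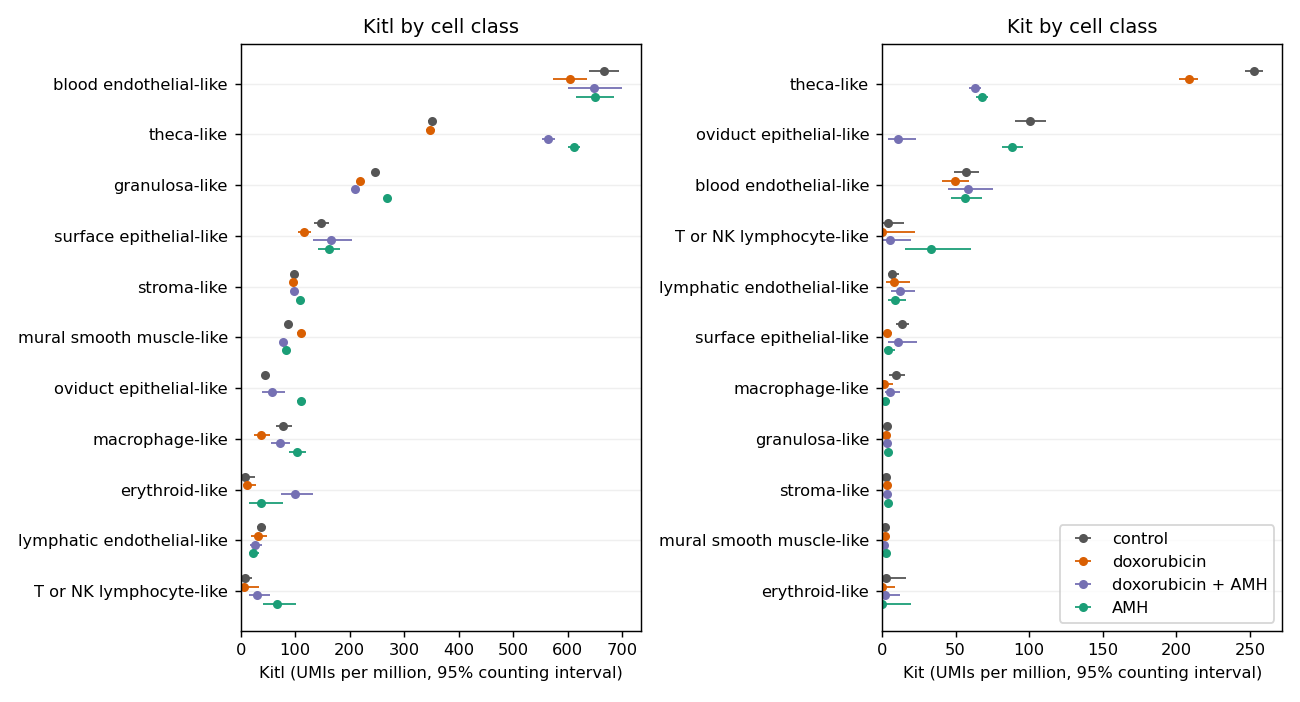
Kitl (left) and Kit (right) in CPM by cell class, 1 point per library with its 95% counting interval, classes ordered by the level over the 4 libraries together; points with fewer than 20 cells are not drawn. Kitl was high in 3 classes, and Kit in theca-like cells was 253 and 208 without AMH against 63.2 and 67.8 with it.

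Kit in theca-like cells differed most between the libraries with and without AMH. It was 253 CPM (interval 247 to 259) for control, 208 CPM (201.9 to 215) for doxorubicin, 63.2 CPM (59.2 to 67.3) with both agents and 67.8 CPM (64.0 to 71.8) for AMH. Both AMH libraries thus lay far under both others. The log2 ratio was -1.90 (-1.99 to -1.81) for AMH / control, a 3.73-fold lower level, and -1.72 (-1.82 to -1.62) for doxorubicin+AMH / doxorubicin, 3.30-fold lower. These 2 comparisons share no library. Of the 6255 genes that averaged 20 CPM or more in theca-like cells, 8.3% were lower by at least 1.5-fold in AMH than in control, and 8.2% were lower by as much in doxorubicin+AMH than in doxorubicin. Kit ranked 40 from the lowest in the first comparison and 38 from the lowest in the second, against all-gene medians of -0.07 and -0.05.

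The doxorubicin comparisons gave smaller Kit ratios. Doxorubicin / control was -0.28 (-0.34 to -0.22), and doxorubicin+AMH / AMH was -0.10 (-0.23 to 0.02), an interval that includes 0. For these contrasts 0.224% and 0.272% of the 6255 genes were lower by 1.5-fold, and Kit was not among them in either. These comparisons also share no library with each other.

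The share of theca-like cells with a Kit UMI followed the levels. Shares were 81.5% for control, 76.9% for doxorubicin, 48.1% with both agents and 50.5% for AMH, but these cells differed in depth, with medians of 20574, 24523, 14280 and 12655.5 UMIs. After each cell was thinned to 2000 UMIs the shares were 34.4%, 28.7%, 10.2% and 10.6%, with 8, 28, 5 and 11 shallower cells left out. The erythroid-like share at this depth was 0 of 192 cells, which allows a share of up to 1.56% by the limit of 3 cells (exact 95% limit 1.90%), and the granulosa-like share was 0.433% to 1.14%. The median was 4 Kit UMIs per theca-like cell in control and in doxorubicin, 0 with both agents and 1 in AMH, and the 10% of cells with the most held 43.3%, 42.3%, 56.4% and 51.7% of the Kit UMIs.

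Theca-like cells of the libraries lay in different clusters, so Kit was also read within each. One cluster was led by Cyp17a1 (the androgen-forming enzyme), Cyp11a1 (the first enzyme of steroid synthesis) and Lhcgr (the luteinizing hormone receptor), with 805 control, 554 doxorubicin, 171 doxorubicin+AMH and 167 AMH cells. The other was led by Lhcgr and Prss35, with 29, 21, 527 and 699 cells in the same order. Within the Cyp17a1-led cluster Kit was 255 CPM for control, 210.3 CPM for doxorubicin, 72.8 CPM with both agents and 89.2 CPM for AMH. At similar depths (medians of 21004 to 25176 UMIs) both AMH libraries again lay under both others. The ratios there were -1.51 (-1.66 to -1.37) for AMH / control and -1.53 (-1.69 to -1.37) for doxorubicin+AMH / doxorubicin.

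In the Lhcgr- and Prss35-led cluster Kit was low in every library, at 46.0, 60.9, 58.6 and 59.4 CPM, with 10 UMIs behind the control value and 16 behind the doxorubicin value. Its AMH / control ratio was 0.37 (-0.52 to 1.43), so a difference between libraries was not detectable within it at this depth. With the 2 clusters held at a fixed mix, the AMH / control ratio was -1.11 and doxorubicin+AMH / doxorubicin -1.13. The part of the cluster mix in the class values was not tested beyond these values.

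Kitl in theca-like cells went the other way. It was 351 CPM (344 to 358) for control, 348 CPM (339 to 356) for doxorubicin, 564 CPM (552 to 576) with both agents and 611 CPM (600 to 623) for AMH. The AMH libraries both exceeded the others, and control and doxorubicin had overlapping intervals. The ratio was 0.80 (0.76 to 0.84) for AMH / control and 0.70 (0.65 to 0.75) for doxorubicin+AMH / doxorubicin. In these comparisons 5.9% and 5.6% of the 6255 genes were higher by at least 1.5-fold, and Kitl ranked 217 and 275 from the highest.

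For doxorubicin / control the Kitl ratio in theca-like cells was -0.01 (-0.06 to 0.03), and for doxorubicin+AMH / AMH it was -0.12 (-0.16 to -0.07). Within the Cyp17a1-led cluster Kitl was 351, 349, 431 and 494 CPM across control, doxorubicin, doxorubicin+AMH and AMH. The AMH / control ratio there was 0.49 (0.43 to 0.56) and the doxorubicin+AMH / doxorubicin ratio 0.31 (0.23 to 0.38), both smaller than over the whole class. In the other cluster Kitl was 276, 228, 627 and 658 CPM, with 60 UMIs behind each of the first 2 values. The thinned share of theca-like cells with a Kitl UMI was 40.6%, 39.9%, 51.9% and 57.9% (89.0%, 87.1%, 90.5% and 93.1% before thinning), against 3.12% of erythroid-like cells.

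**Figure D3:**
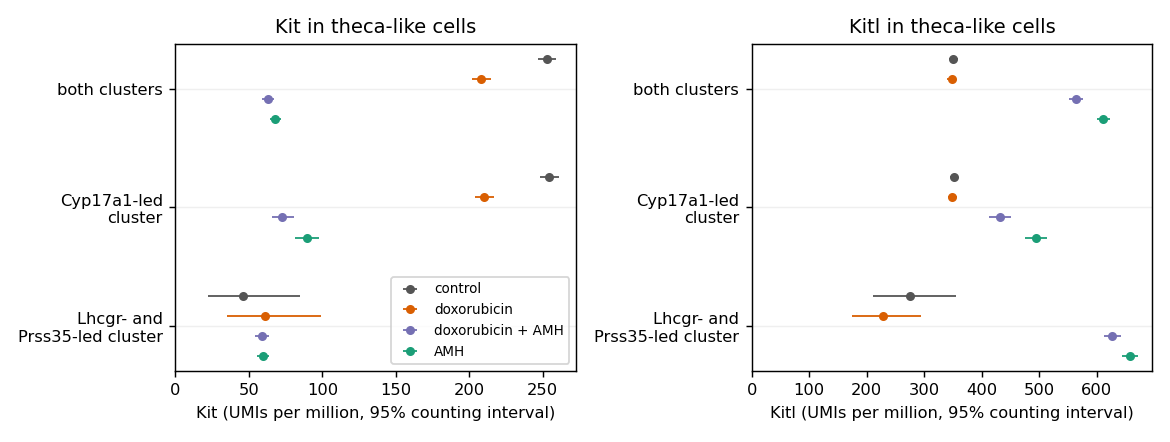
Kit (left) and Kitl (right) in CPM in theca-like cells, over both clusters and within each, 1 point per library with its 95% counting interval. Within the Cyp17a1-led cluster Kit was 255 and 210.3 without AMH and 72.8 and 89.2 with it, while Kitl was 351 and 349 without AMH and 431 and 494 with it.

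Some other theca genes also differed between libraries with and without AMH. Cyp17a1 was 1914 CPM in control and 1880 CPM in doxorubicin within the Cyp17a1-led cluster, and 869 and 418 CPM in doxorubicin+AMH and AMH. Cyp11a1 there was 3406 and 3239 CPM without AMH and 1280.5 and 1117 CPM with it, while Lhcgr differed less, at 411 to 502 CPM. Star, which carries cholesterol into mitochondria, was 430.3, 321, 317 and 278 CPM there across control, doxorubicin, doxorubicin+AMH and AMH, and over both clusters it was higher with both agents (389 CPM) than in doxorubicin (321 CPM). Over both clusters the 9 theca markers summed to 18853 and 18302 CPM without AMH and 7909 and 7008 CPM with it. The theca-like class is thus defined by genes that themselves differed between the libraries, and the part of this in the Kit and Kitl ratios was not tested. The 10 granulosa markers summed to 946 and 993 CPM in theca-like cells without AMH and 627 and 687 CPM with it. The 9 stroma markers summed to 829 and 866 CPM without AMH and 1547 and 1379 CPM with it, and the 6 erythroid markers to 104, 29.7, 466 and 9.03 CPM across control, doxorubicin, doxorubicin+AMH and AMH. The part of these transcripts in the theca-like ratios was not tested.

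Within thinned theca-like cells, the share with Kit was nearly the same whether or not the cell had a Kitl UMI. Kit was seen in 33.7% of cells with a Kitl UMI and 34.8% of cells without one in control, and in 28.0% and 29.2% in doxorubicin. In doxorubicin+AMH the shares were 9.72% and 10.8%, and in AMH 10.1% and 11.4%. Cells with both numbered 113 of 826 in control, 61 of 547 in doxorubicin, 35 of 693 in doxorubicin+AMH and 50 of 855 in AMH.

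Kitl in granulosa-like cells, the class known as the source of the ligand for the oocyte, differed less between the libraries. It was 247 CPM (243 to 250.5) for control, 220 CPM (216 to 223) for doxorubicin, 210 CPM (206 to 213) with both agents and 269 CPM (265 to 273) for AMH. Both libraries with doxorubicin lay under both without it. The ratio was -0.17 (-0.20 to -0.13) for doxorubicin / control and -0.36 (-0.39 to -0.33) for doxorubicin+AMH / AMH. Of 6611 genes tested, 0.0908% and 0.439% were lower by at least 1.5-fold in these comparisons, and Kitl did not reach that fold in either.

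For AMH / control the Kitl ratio in granulosa-like cells was 0.13 (0.10 to 0.16), and for doxorubicin+AMH / doxorubicin it was -0.07 (-0.10 to -0.03), with 0.635% and 2.04% of genes past 1.5-fold in the direction of Kitl. The last ratio turned positive under 4 other settings, for example 0.17 with a fixed mix of clusters and 0.11 with each cell weighted equally. A gate on marker genes per cell, which took 957, 825, 1379 and 1408 cells in control, doxorubicin, doxorubicin+AMH and AMH in place of 2131, 1969, 2298 and 3012, gave Kitl levels of 146, 160.2, 195 and 241 CPM. Under it doxorubicin / control was 0.14 and AMH / control was 0.73. The granulosa markers that the gate used summed to 6757, 6583, 9299 and 7741 CPM in granulosa-like cells of these libraries. They include Inhba, Hsd17b1 and Amh, which differed between AMH and control, and the part of this in the gated values was not tested. With the erythroid-like level of each library subtracted, AMH / control was -0.043 and doxorubicin+AMH / AMH was -1.07. The subtracted level in doxorubicin+AMH rests on 46 UMIs in 7 cells. The order of the libraries in the class as a whole thus depended on which granulosa cells were counted and on the background taken off. After thinning, 28.0%, 28.2%, 28.0% and 33.4% of granulosa-like cells had a Kitl UMI in control, doxorubicin, doxorubicin+AMH and AMH (72.4%, 72.6%, 73.9% and 73.5% unthinned), with 49, 122, 96 and 124 cells left out. The erythroid-like share was 3.12% thinned and 7.66% unthinned, at a median depth of 5474 UMIs.

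Granulosa-like clusters differed more among themselves than the libraries did. The highest Kitl, 461 CPM over the libraries, was in the cluster led by Cntn4, Slc18a2 and Cdh12, with Amh among its 10 leading genes. The unnamed cluster with granulosa and smooth muscle markers, 180 of whose 182 cells were doxorubicin, had 469 CPM on 606 UMIs. It met 10 of 10 granulosa markers but is not counted as granulosa-like, and its part in the doxorubicin comparisons was not tested. This cluster also had the small-follicle markers Gatm at 316 CPM and Kctd14 at 594 CPM. The lowest level of the deep clusters, 128 CPM, was in the cluster led by Nr5a2, Kcnq5 and Mctp1. The 2 clusters led by Inhba, the activin subunit of growing and antral follicles, had 245 CPM (Inhba itself at 2592 CPM) and 197 CPM (Inhba at 906 CPM, Top2a at 681 CPM).

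In the Cntn4-led cluster Kitl was 481 CPM for control, 441 CPM for doxorubicin, 397 CPM with both agents and 507 CPM for AMH. Its doxorubicin / control ratio was -0.12 (-0.18 to -0.07), its doxorubicin+AMH / AMH ratio -0.35 (-0.44 to -0.26), and the value was 0.08 (0.01 to 0.14) for AMH / control. The cluster led by Kcnq5, Ank3 and Bmpr1b had the same order, at 275, 208, 201.9 and 280.4 CPM, with -0.41 (-0.47 to -0.34) and -0.47 (-0.55 to -0.40) for the 2 doxorubicin comparisons. The 4 genes listed for atretic granulosa cells were each highest in this cluster among the 8, with Itih5 at 383 CPM (next 250.6), Ghr at 1239.9 CPM (next 667), Cald1 at 1165 CPM (next 325) and Pik3ip1 at 176 CPM (next 61.7).

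The Inhba-led clusters had another order. The one with the most Inhba had 207, 184, 271 and 283 CPM of Kitl across control, doxorubicin, doxorubicin+AMH and AMH. The AMH / control ratio was 0.45 (0.37 to 0.54) and the doxorubicin+AMH / doxorubicin ratio 0.56 (0.47 to 0.65). The deeper, Top2a-rich one had 158, 167, 195 and 249 CPM, with ratios of 0.65 (0.59 to 0.72) and 0.22 (0.15 to 0.29) for the same comparisons. In both, the AMH libraries lay above the others. In the Nr5a2-led cluster the values were 120.0, 107, 111 and 167 CPM, and AMH alone stood above the rest.

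The share of cells in these clusters also differed between libraries. The Cntn4-led cluster held 330 of 2131 granulosa-like cells in control and 147 of 2298 in doxorubicin+AMH, and the Inhba-richest cluster 271 and 478. Of the 4 small-follicle genes, 2 were lower by at least 1.5-fold in granulosa-like cells in AMH than in control, and 3 in doxorubicin+AMH than in doxorubicin, beside 1.68% and 2.04% of all genes. Kctd14 was 271 and 293 CPM without AMH and 78.9 and 73.1 CPM with it, while Gatm was 62.3 CPM in control and 59.7 CPM in AMH (-0.06), the same as the all-gene median. Of the 4 antral genes that passed the filter, 3 were higher by 1.5-fold in both AMH comparisons, beside 0.635% and 0.862% of all genes. They were Nppc (1.31 and 1.57), Inhba (0.89 and 0.82) and Hsd17b1 (0.70 and 0.85). Of the 4 cumulus genes, 3 were lower in AMH than in control, with Amh at -1.53, and 1 in doxorubicin+AMH than in doxorubicin. Of the 4 atretic genes 0 and 3 were lower in these comparisons. The part of this mix in the class value was not tested beyond the fixed-mix setting, which gave -0.22, -0.30, 0.25 and 0.17 for doxorubicin / control, doxorubicin+AMH / AMH, AMH / control and doxorubicin+AMH / doxorubicin.

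**Figure D4:**
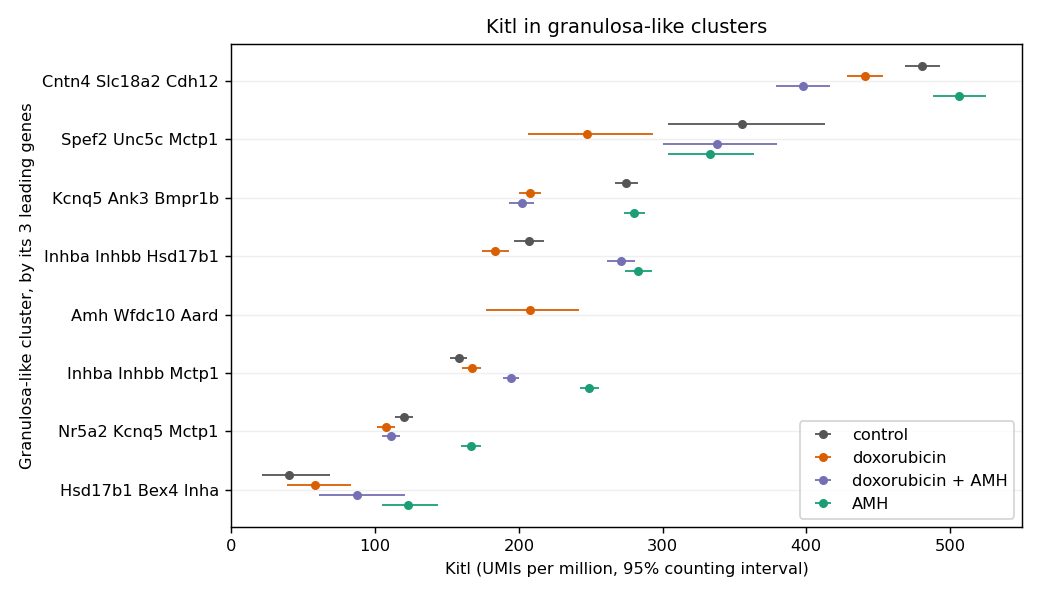
Kitl in CPM in the 8 granulosa-like clusters, named by their 3 leading genes, 1 point per library with its 95% counting interval and only where a library had at least 20 cells. The cluster at the top reached 397 to 507, and the cluster led by Hsd17b1 at the bottom 40.0 to 123.

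Kitl counts in granulosa-like cells were uneven over cells. The median was 2 UMIs per cell in every library, and the 10% of cells with the most held 60.4%, 56.4%, 48.6% and 53.7% of the UMIs in control, doxorubicin, doxorubicin+AMH and AMH. A single control cell held 290 Kitl UMIs. The counts of a class were thus carried by a minority of its cells.

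Blood endothelial-like cells had both transcripts, and the AMH comparisons gave intervals that include 0 for both. Kitl was 666, 603, 648 and 649 CPM across control, doxorubicin, doxorubicin+AMH and AMH, and Kit was 57.0, 49.6, 58.7 and 56.6 CPM, on 167, 115, 59 and 83 cells. The AMH / control ratio was -0.04 (-0.14 to 0.06) for Kitl and -0.01 (-0.35 to 0.33) for Kit, and doxorubicin+AMH / doxorubicin was 0.10 (-0.03 to 0.24) and 0.25 (-0.23 to 0.71). Doxorubicin / control was -0.14 (-0.24 to -0.05) for Kitl. The Kit difference seen in theca-like cells had no counterpart of that size here, since the interval for AMH / control ended at -0.35. The theca-like and endothelial-like ratios were not tested against each other.

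Kitl differed between the 3 mural clusters. In the one led by Rgs5, Ebf1 and Ndufa4l2, Kitl was 266 CPM in control and 274 CPM in doxorubicin but 119 CPM with both agents and 157 CPM in AMH. The ratios were -0.76 (-1.12 to -0.41) for AMH / control and -1.21 (-1.62 to -0.81) for doxorubicin+AMH / doxorubicin, on 64 to 113 cells and 67 to 295 Kitl UMIs per library. The contractile cells of the same class, led by Myh11 and Acta2, had an AMH / control ratio of 0.20 (0.05 to 0.34) and a doxorubicin+AMH / doxorubicin ratio of -0.29 (-0.45 to -0.14). The mural cluster led by Des, Cnn1 and Actg2 had 36.3 CPM in control, 31.2 CPM on 9 UMIs in doxorubicin, 66.5 CPM with both agents and 32.9 CPM in AMH, with ratios of -0.14 (-0.58 to 0.29) and 1.09 (0.03 to 2.32). Over the whole mural class the ratios were -0.06 (-0.19 to 0.06) and -0.50 (-0.64 to -0.36). In doxorubicin+AMH the Des-led cluster and the whole class (78.2 CPM) lay below the erythroid-like level of 99.9 CPM (64.9 CPM without 1 cell). Contractile cells had at most 93.8 CPM in any library, so they lay below 99.9 CPM there too. The Des-led AMH value lay below the 38.0 CPM of erythroid-like cells. No change in expression is read from ratios that use these values. Stroma-like cells gave 0.16 (0.09 to 0.23) for AMH / control, from 98.0 CPM in control to 109 CPM in AMH. The erythroid-like levels of these 2 libraries were 8.71 and 38.0 CPM, and the granulosa markers in stroma-like cells summed to 399 and 626 CPM. Their part in the stroma-like ratio was not tested.

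Kit in oviduct epithelial-like cells was 101 CPM in control (132 cells) and 88.5 CPM in AMH (233 cells), and it was 10.8 CPM on 6 UMIs in the 43 doxorubicin+AMH cells. Doxorubicin had 3 such cells. The doxorubicin+AMH cells had a median of 3592 UMIs against 20071 in control, and after thinning 0 of 33 had a Kit UMI, which allows a share of up to 9.09% by the limit of 3 cells (exact 95% limit 10.6%), and 13.7% (8.02% to 21.3%) of 117 control cells and 10.3% (6.49% to 15.3%) of the AMH cells did. In these doxorubicin+AMH cells the granulosa markers summed to 1844 CPM, against 189 CPM in control and 483 CPM in AMH, and the theca markers to 539 CPM, against 170.1 and 335 CPM. The mural smooth muscle markers were 1396 CPM in control, 110 CPM with both agents and 322 CPM in AMH, and the part of these in the Kit values was not tested. Cells with oocyte transcripts, described next, held 69 of the 371 Kit UMIs in control and 181 of the 596 in AMH. Without them the levels were 85.5 and 67.0 CPM.

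Oocytes, the cells in which Kit is best known in the ovary, formed no cluster. A gate of at least 3 oocyte genes and 5 UMIs of them (Zp1 to Zp3, Gdf9, Bmp15 and others, without Kit) took 23 of 28230 cells, with 5, 7, 1 and 10 from control, doxorubicin, doxorubicin+AMH and AMH. They held 127, 68, 0 and 188 Kit UMIs, or 216, 88.5, 0 and 249 CPM, and 14 of the 23 had a Kit UMI. They lay in clusters of other classes, mainly oviduct epithelial-like and granulosa-like, and their median depth was 97556 UMIs, far above that of the classes. Whether they are oocytes, oocytes with attached cells or other mixtures was not tested. In the granulosa-like class, 14 cells passed this gate or the gate on mast cell genes described below. Together they held 88 of 936 Kit UMIs, 54 of them in 1 control cell. Without both kinds of cell granulosa-like Kit was 2.73, 2.64, 3.41 and 4.03 CPM across control, doxorubicin, doxorubicin+AMH and AMH.

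The Kit signalling list of 44 genes, which holds adaptors, PI3K-AKT, RAS-ERK, SRC-family and STAT genes and inhibitors such as Cbl, was read in the same cells. Of its 32 genes averaging 20 CPM or more in theca-like cells, 1 was higher and 2 were lower by at least 1.5-fold for AMH / control, beside 5.9% and 8.3% of all genes. The list median was -0.06, beside -0.07 for all genes. Stat5a, a transcription factor used by many cytokine receptors, was 18.2 CPM in control and 36.5 CPM in AMH (log2 ratio with 5 CPM added 0.84). Akt1, the kinase below PI3K, was 91.3 and 52.3 CPM (-0.75), and Lyn, a SRC-family kinase, 26.9 and 14.7 CPM (-0.70). Mapk3, which encodes an ERK kinase, was at 0.44 and Hras, a RAS protein, at -0.55, both under 1.5-fold.

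For doxorubicin+AMH / doxorubicin, 0 of the 32 genes were higher and 5 were lower by 1.5-fold, beside 5.6% and 8.2% of all genes, and the list median was -0.03 beside -0.05 for all genes. Those described here were chosen after their values were seen: Foxo3 (-1.003), the transcription factor that AKT keeps out of the nucleus, Gab2 (-0.76), an adaptor, Akt1 (-0.67) and Lyn (-0.64). Foxo3 was 73.1 CPM for control, 92.3 CPM for doxorubicin, 43.5 CPM with both agents and 62.0 CPM for AMH. For doxorubicin / control and doxorubicin+AMH / AMH 0 of the 32 passed 1.5-fold in either direction, beside 0.192% and 0.4% of all genes higher and 0.224% and 0.272% lower. The list medians were -0.05 and -0.01. For doxorubicin / control the list genes at the upper end included Foxo3 (0.32) and Gab2 (0.25), and those at the lower end Crkl, an adaptor (-0.26), and Cbl, a ubiquitin ligase that removes active receptors (-0.22).

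Of 13 genes of ERK output, which are switched on when ERK is active, 4 passed the filter in theca-like cells and 0 passed 1.5-fold in any of the 4 comparisons, beside 0.192% to 8.3% of all genes by comparison and direction, so a count of 0 among 4 shows little. Egr1, the immediate early transcription factor, was 1599, 1676, 1827 and 1965 CPM across control, doxorubicin, doxorubicin+AMH and AMH. Spred1, an inhibitor of RAS-ERK signalling, was 93.1, 79.8, 65.0 and 66.4 CPM. Dissociation is known to induce Egr1, and its part in these values was not tested. Adam17, the protease known to shed Kit ligand, was the only 1 of 5 shedding genes to pass the filter, at 35.4, 39.8, 31.4 and 33.9 CPM in theca-like cells and 87.5, 76.4, 85.8 and 83.2 CPM in granulosa-like cells.

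In granulosa-like cells 31 of the 44 signalling genes passed the filter. For AMH / control 0 were higher and 1 was lower by 1.5-fold, beside 0.635% and 1.68% of all genes, with a list median of -0.09 beside -0.06. The lower gene was Map2k1, an ERK-cascade kinase, at 86.0 CPM for control, 80.7 CPM for doxorubicin, 51.6 CPM with both agents and 43.3 CPM for AMH (-0.91). The next lowest were the adaptors Gab2 (-0.42) and Gab1 (-0.27), and those at the upper end included Akt1 (0.09) and Pik3ca, a catalytic subunit of PI3K (0.07). For doxorubicin+AMH / doxorubicin Map2k1 was again the 1 lower gene, at -0.60, and 0 were higher, beside 2.04% and 0.862% of all genes. For doxorubicin / control 0 of 31 passed in either direction (0.0756% of all genes higher, 0.0908% lower); Hras (0.32), Stat5a (0.26) and Akt1 (0.19) were highest, and Pik3r1, a regulatory subunit of PI3K (-0.33), and Gab2 (-0.31) lowest. For doxorubicin+AMH / AMH 0 of 31 passed (0.151% higher, 0.439% lower).

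The other class III receptors were highest in classes other than the theca-like class. Csf1r, the receptor for Csf1 and Il34 and one of the macrophage markers, was 581 CPM in macrophage-like cells and at most 7.87 CPM elsewhere. Pdgfra, one of the stroma markers, was highest in stroma-like cells at 294 CPM and Pdgfrb also there at 99.4 CPM, while Flt3 reached 1.42 CPM at most, in macrophage-like cells. Among the ligands, Csf1, Il34 and Pdgfa were highest in surface epithelial-like cells at 42.7, 16.1 and 187 CPM, Flt3l in T or NK lymphocyte-like cells at 28.7 CPM and Pdgfc in mural smooth muscle-like cells at 67.1 CPM. Pdgfb and Pdgfd were highest in blood endothelial-like cells, as Kitl was, at 134 and 231 CPM. In theca-like cells Pdgfra, the relative that lies beside Kit on chromosome 5, was 18.1 and 23.3 CPM in control and doxorubicin and 96.3 and 106 CPM in doxorubicin+AMH and AMH, so it was higher in both libraries in which Kit was lower.

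Genes with the most similar pattern were found across the 31 clusters of at least 50 cells, as Pearson r of log2 CPM with 5 CPM added, among 13058 genes that reached 20 CPM in a cluster. For Kitl these were Rai14, an actin-associated protein (0.84), Gpc4, a glypican of the cell surface (0.84), Hoxb9, a homeobox gene (0.83), Ptprg, a receptor phosphatase (0.79), and Gm35533 (0.79). For Kit they were AU021092 (0.83), Ass1, an enzyme of arginine synthesis (0.76), 4930426D05Rik (0.75), Mal, a membrane lipid-raft protein (0.75), and Fam129a (0.73). Kitl and Kit themselves had r = 0.19. The clusters share libraries and depth, and these values are descriptions over clusters of very unequal size.

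Over all kept cells of a library, Kit was 48.9 CPM for control, 35.3 CPM for doxorubicin, 11.5 CPM with both agents and 16.7 CPM for AMH, and Kitl was 212, 204.3, 216 and 260.0 CPM. Such totals combine the level per cell with the makeup of the library, here with theca-like shares of 10.5%, 9.59%, 10.7% and 11.1% and granulosa-like shares of 26.9%, 32.8%, 35.4% and 38.5%. Under each of the 9 other settings tried, Kit in theca-like cells stayed lower in both AMH comparisons and Kitl stayed higher.

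**Figure D5:**
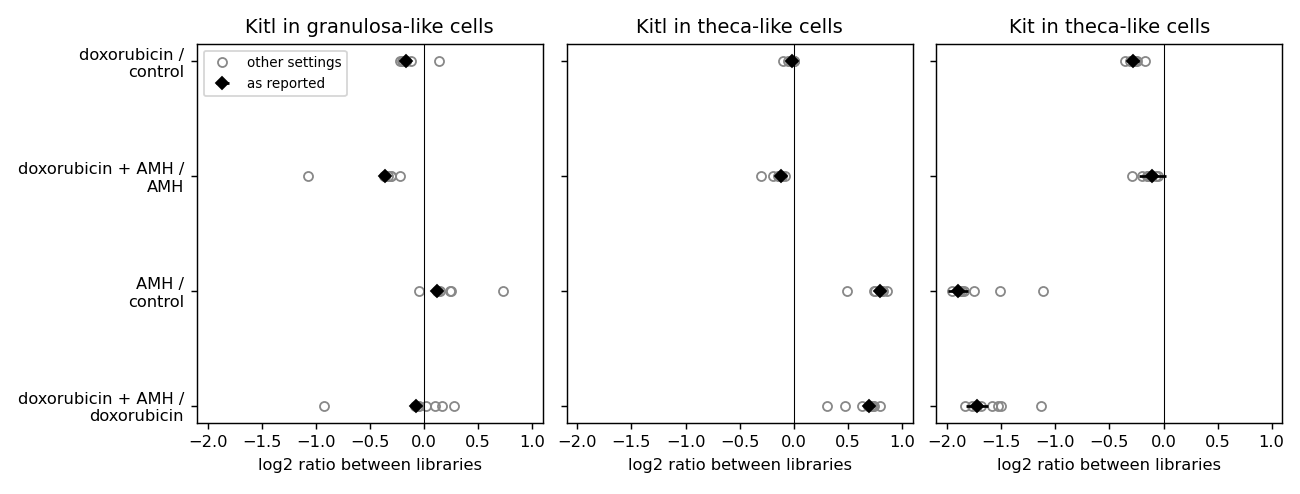
Log2 ratios of Kitl in granulosa-like cells (left), Kitl in theca-like cells (middle) and Kit in theca-like cells (right) for the 4 library comparisons; black diamonds are the reported values with 95% counting intervals and open circles the same ratio under other settings. Kit in theca-like cells spans -1.95 to -1.11 for AMH / control, and Kitl in granulosa-like cells crosses 0 in 3 of the 4 comparisons.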

How the data were processed

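Droplet 3′ libraries of dissociated ovary were counted by the authors (Cell Ranger 7.0.0, as recorded in the file headers). The deposited values are whole-number UMI counts per gene and cell barcode, not normalized. The submitters' processing notes name mm10, R 4.2.0 and Seurat 4.1.0. Whether intronic reads were counted is not given in the sources used here. The lowest deposited barcode had 500 or 501 UMIs.

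Cells under 1000 UMIs or over 20% mitochondrial UMIs were dropped. Scrublet scores (scanpy 1.11.5) were used to remove the top 0.8% of cells per 1000 deposited cells (677, 408, 489 and 719), since its automatic threshold marked 0. Counts were log-normalised and clustered together, with no batch correction, on 2000 variable genes, without Kitl, Kit, mitochondrial genes and the 4 lists on Kit signalling, ERK output, shedding and receptor relatives (30 principal components, 20 neighbours, Leiden resolution 1.0, leidenalg 0.10.2). A cluster was named when at least 3 markers and 60% of a list lay 1 log2 unit above the median cluster in at least 10% of its cells, and the list had more members among the 10 leading genes than any other. These thresholds were set after values were seen. The members, marker lists and gene lists were chosen with earlier results of these data known.

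CPM values have exact Poisson intervals, ratios exact conditional binomial intervals and shares exact Clopper-Pearson intervals, at 95%. Where 0 cells had a UMI, the limit given is 3 cells of the total, with the exact limit beside it. Intervals cover counting error only, not animals, dissection or library preparation. List ratios add 5 CPM and use genes averaging 20 CPM or more, and the calling fold is 1.5. Genes named from the Kit signalling list are the 3 highest and 3 lowest for AMH / control and for doxorubicin / control, except that some are not reported here; other genes named from the lists were chosen after their values were seen. The genes most alike are the 5 with the highest r, and each relative is given in its highest class. The ratio code was tested on simulated counts. Sequences are from GENCODE M21 (GRCm38, which is mm10) and RefSeq promoter windows.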

Additional observations from a re-analysis of the deposited data

Results flagged for a closer look

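The Kitl ratios for AMH / control had opposite signs in different classes. The log2 ratio was 0.80 in theca-like cells and 1.30 in oviduct epithelial-like cells (interval 1.06 to 1.56, from 45.0 to 111 CPM), but -0.71 (-1.40 to -0.07) in lymphatic endothelial-like cells, from 37.9 CPM on 91 UMIs to 23.1 CPM on 26 UMIs. The difference between the classes was not tested. Erythroid-like cells, used as the measure of free RNA, had 8.71 CPM of Kitl in control and 38.0 CPM in AMH. The lymphatic endothelial-like value in AMH lies below that level, so no change in expression is read from it. In oviduct epithelial-like cells the granulosa markers were 189 CPM in control and 483 CPM in AMH, the theca markers 170.1 and 335 CPM and the erythroid markers 14.9 and 631 CPM, and their part in the Kitl value was not tested.

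Kit was also counted in rare cells that formed no cluster of their own and lay within other classes. Barcodes past the oocyte gate held 383 Kit UMIs, and 5 barcodes past a gate on mast cell genes, a cell type known for Kit, held 9 Kit UMIs in 4 of them, 3 of the 5 from doxorubicin and 2 from AMH.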

How the results depend on the processing

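No paired analysis was possible because each group is 1 library and no result comes from a test. Values below are log2 ratios. For Kitl in granulosa-like cells, doxorubicin / control was -0.12 with median-of-ratios scaling, 0.14 with the marker gate and -0.22 with a fixed mix of clusters. Doxorubicin+AMH / AMH was -0.31 with the gate, -0.30 with the fixed mix, -0.22 with cells weighted equally and -1.07 with the erythroid-like level subtracted. AMH / control was 0.24 with median-of-ratios scaling, 0.73 with the gate, 0.25 with the fixed mix and -0.043 with the subtraction. Doxorubicin+AMH / doxorubicin was 0.023 with median-of-ratios scaling, 0.28 with the gate, 0.17 with the fixed mix, 0.11 with cells weighted equally and -0.92 with the subtraction. Median-of-ratios scaling moved the median of all genes by up to 0.114 (granulosa-like, AMH / control). The subtraction used 46 UMIs from 7 cells in doxorubicin+AMH, 19 of them in 1 cell. For Kit in theca-like cells, doxorubicin / control was -0.35 with a mitochondrial limit of 10% and -0.18 with the fixed mix. Doxorubicin+AMH / AMH was -0.29 in the Cyp17a1-led cluster alone. AMH / control was -1.75 with the mitochondrial limit, -1.11 with the fixed mix and -1.51 in that cluster. Doxorubicin+AMH / doxorubicin was -1.502, -1.13 and -1.53 under these settings, -1.83 with cells weighted equally and -1.58 with the gate. For Kitl in theca-like cells, doxorubicin / control was -0.10 with the fixed mix. Doxorubicin+AMH / AMH was -0.30 with the subtraction and -0.20 in the Cyp17a1-led cluster. AMH / control was 0.75 with doublets left in, 0.86 with cells weighted equally, 0.74 with the subtraction and 0.49 in that cluster. Doxorubicin+AMH / doxorubicin was 0.63 with doublets left in, 0.79 with the fixed mix, 0.47 with the subtraction and 0.31 in that cluster. The cause of these differences was not tested. The other 70 values stayed within the reported counting interval or, for the medians of the Kit signalling list, near the reported median. Among them, Kitl in theca-like cells for doxorubicin / control, whose interval includes 0, was just above 0 with the mitochondrial limit and with median-of-ratios scaling. The higher depth limit, the subtraction, the cluster alone and the results on Kitl in theca-like cells were chosen after seeing the data.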
